A study of Mus musculus with 8 samples.

Results

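The genes described here are the components of the TGF-beta and BMP signalling pathway in spermatogonia labelled as knockout for the histone demethylase KDM1A, set against controls. They were chosen by symbol: 118 transcript entries of 54 genes matched the names of BMP, GDF, TGF-beta, activin, inhibin, Nodal, Lefty and follistatin ligands or binding proteins, their receptors, the Smads, the Smurf and Ski regulators and the targets Id1, Id2 and Id3. Transcripts were summed by gene, and genes whose FPKM averaged 0.5 or more across all 8 libraries were kept, which left 44 of 17589 genes. FPKM are fragments scaled to transcript length and to library size, so levels can be compared between genes. At the edge of that minimum, Tgfb1i1 was just inside with a mean of 0.51 FPKM and Fstl3 just outside with 0.42 FPKM. The group means were 0.5 FPKM or more in both groups for 42 of the 44 genes, while Smad9 and Tgfb1i1 passed only through the KO libraries, where they are higher. The other 9 genes under the minimum for testing were Gdf9, Tgfb3, Lefty2, Acvrl1, Tgfb2, Bmp8a, Inhbc, Fstl4 and Gdf1, with means between 0.127 and 0.339 FPKM. Of the 44, 6 were set apart as name matches and were not counted as components (Bmp2k, Tgfbrap1, Tgfb1i1, Skiv2l, Skiv2l2 and Skida1), which leaves 38 components. Whether any of these 6 acts in the pathway was not tested.

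RNA was sequenced from 4 Kdm1a KO and 4 control libraries of spermatogonia, the male germ cells that precede meiosis, taken at 6 days after birth from C57BL/6 mice. All 8 carry the GOF/deltaPE-Oct4/GFP reporter, which marks germ cells, and the cells were isolated by sorting for that fluorescence. The protocol calls the mutant Kdm1a-cKO; the promoter of the recombinase, the exons removed and the genotype behind the word control are not stated in the labels. The labels do not say that the libraries came from separate animals, so p-values measure the spread between these libraries, which may be technical.

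Ligands of the TGF-beta superfamily bind pairs of type II and type I receptors, and the type I receptor then phosphorylates the receptor-activated Smads. TGF-beta, activins and GDF11 act mainly through SMAD2 and SMAD3, and BMPs through SMAD1, SMAD5 and SMAD9, all of which join SMAD4 and enter the nucleus. SMAD6 and SMAD7 block the relay, SMURF ubiquitin ligases remove its proteins, and SKI and SKIL hold Smad targets silent. In the postnatal mouse testis, BMP4 and activin are known to act on spermatogonia, and Sertoli cells make activin and inhibin.

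Kdm1a had 14.2, 14.1, 17.3 and 14.9 FPKM in the KO libraries, against 53.7, 54.0, 91.95 and 48.1 FPKM in the control libraries, and the groups did not overlap (log2 change -1.92, SE 0.18, adjusted p = 6.998e-05). Pou5f1, whose regulatory sequence drives the reporter, averaged 47.4 ± 7.66 FPKM in KO and 60.5 ± 17.1 FPKM in control libraries (SD, n = 4 each; adjusted p = 0.282). The steps between low FPKM values put depth at 45250000 to 63250000 fragments in KO and 60500000 to 67000000 fragments in control libraries. KO replicate 2 stood apart: it was the lowest KO library for 26 of the 44 genes and had 1642 transcript entries at 0, against 506 to 734 in the other libraries. The 8 germ cell markers summed to 1505 to 1980 FPKM in KO and 1528 to 1679 FPKM in control libraries. Other cell types were far lower: 12 Sertoli markers summed to 48.5 to 89.9 FPKM in KO and 24.9 to 73.4 FPKM in controls, and 5 interstitial stromal markers to 20.1 to 24.2 FPKM in KO and 32.5 to 41.7 FPKM in controls. The 5 endothelial markers summed to 11.8 to 12.5 FPKM in KO and 4.00 to 5.76 FPKM in controls, and 5 peritubular myoid markers to 4.78 to 7.26 FPKM in KO and 4.08 to 6.79 FPKM in controls. Leydig and macrophage markers with a value, 2 of each, summed to at most 3.49 FPKM in any library, and the erythroid marker Alas2 had 1.14 to 2.39 FPKM in KO and 0.282 to 0.305 FPKM in control libraries. None of the markers with a value was at 0 in any library. The endothelial and stromal sums and the Alas2 values did not overlap between the groups, and their part in the results that follow was not tested. Within the lists, 2 of the 8 germ cell markers lay wholly lower in the KO. Zbtb16 averaged 22.3 FPKM in KO and 61.2 FPKM in control libraries, and Sall4 46.4 and 76.4 FPKM. Tex101 lay wholly higher, at 165 FPKM in KO and 102 FPKM in control libraries, and the other 5 germ cell markers overlapped. Of the endothelial markers, 3 of 5 lay wholly higher in the KO (Tek, Pecam1 and Emcn) while Cdh5 and Kdr overlapped. Of the 5 stromal markers Col1a1 alone lay wholly lower, at 15.6 ± 0.285 FPKM in KO and 28.7 ± 2.22 FPKM in control libraries, and the other 4 overlapped. The Sertoli marker Rhox5 lay wholly higher, at 10.4 FPKM in KO and 3.28 FPKM in control libraries, and the other 11 overlapped. Des alone of the peritubular myoid markers lay wholly higher, at 0.801 FPKM in KO and 0.361 FPKM in control libraries.

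Promoters are shown for the genes with the largest fold each way among called components with a single promoter entry, which are ligands and Smads at both ends of the range. Each is the 250 bases before the transcript start from RefSeq (GRCm38.p6), 5′ to 3′ on the gene's strand, in lower case. Capitals mark any of 4 motifs searched on both strands: GTCTAGAC, the palindromic Smad-binding element, GGCGCC, a GC-rich Smad site, CAGAC, a single Smad box, and CACCTG, the E-box bound by SNAI proteins (printed as CAGGTG on the other strand). The first pair fell in the KO and the second pair rose. Gdf10 is at chr14:33923337-33923586 on the plus strand, Smad3 at chr9:63757995-63758244 on the minus strand, Bmp4 at chr14:46390670-46390919 on the minus strand and Smad9 at chr3:54755332-54755581 on the plus strand.
Gdf10: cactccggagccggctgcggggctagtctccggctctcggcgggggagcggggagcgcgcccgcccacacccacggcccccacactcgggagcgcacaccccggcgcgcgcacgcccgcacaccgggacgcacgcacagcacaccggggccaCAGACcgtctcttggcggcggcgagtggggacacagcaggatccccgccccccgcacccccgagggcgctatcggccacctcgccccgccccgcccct
Smad3: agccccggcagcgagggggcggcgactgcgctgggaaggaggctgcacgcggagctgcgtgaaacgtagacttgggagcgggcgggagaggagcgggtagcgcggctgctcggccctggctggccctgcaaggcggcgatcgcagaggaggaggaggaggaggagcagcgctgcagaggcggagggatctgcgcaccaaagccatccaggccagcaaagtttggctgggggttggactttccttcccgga
Bmp4: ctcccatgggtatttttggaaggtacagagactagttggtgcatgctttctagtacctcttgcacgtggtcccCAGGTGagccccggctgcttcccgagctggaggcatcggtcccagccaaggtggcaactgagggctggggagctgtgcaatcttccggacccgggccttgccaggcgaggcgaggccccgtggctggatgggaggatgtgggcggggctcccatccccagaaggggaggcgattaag
Smad9: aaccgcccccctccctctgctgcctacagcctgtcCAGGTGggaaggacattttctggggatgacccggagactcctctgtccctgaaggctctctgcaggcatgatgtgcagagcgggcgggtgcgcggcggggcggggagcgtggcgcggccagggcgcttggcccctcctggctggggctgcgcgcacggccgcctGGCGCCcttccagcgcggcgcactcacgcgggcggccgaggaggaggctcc
The Gdf10 window holds 35 CpG and a single CAGAC, and the Smad3 window 22 CpG and no motif searched. The Bmp4 window holds 11 CpG and 1 CACCTG, and the Smad9 window 24 CpG, 1 GGCGCC and 1 CACCTG. Promoter entries were found for 31 of the 44 genes, in 37 windows with a median of 22 CpG. The median was 6 in all 32851 windows, which are of 27025 genes, tested here or not. GGCGCC was in 11 of the 37 windows (29.7%), against 9.59% of all windows, CAGAC in 16 (43.2%) against 42.2%, CACCTG in 5 (13.5%) against 17.2%, and GTCTAGAC in 0 against 0.167%. Windows of the genes that fell had a median of 29.5 CpG (8 windows of 8 genes) and those of the genes that rose 16 CpG (9 windows of 7 genes). Bmpr1b entered the second median with windows of 1, 5 and 5 CpG. GGCGCC is itself rich in CpG, and neither base composition nor expression was matched, so these shares and medians are descriptions.

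Of the 44 genes, 10 rose and 11 fell in the KO, and 23 were not called, by limma at an adjusted p under 0.05 over all 15083 genes tested. Over all genes, 25.9% rose, 11.8% fell and 37.6% were called in either direction. The median log2 change was 0.02 over the 44 genes and 0.10 over all genes. The 4 KO values lay wholly above the 4 control values in 8 of the 44 genes and wholly below in 11, against 26.4% and 12.1% of all genes. Among the 38 components, 8 rose and 10 fell. The genes that rose, and those with KO values wholly above, include Smad9, which passed the minimum only through the KO libraries. The split depends on scaling: 7 rose and 15 fell both with median-ratio scaling and with quantile normalization, 6 rose and 11 fell once small RNAs were taken out, and 25 rose and 1 fell when every library was set to an equal FPKM total. Equal totals moved the median log2 change of all genes to 0.71, and there 6 of the 11 genes that fell turned positive. The microRNA gene Mir5105 alone took 29.4% to 52.7% of the FPKM total in KO and 61.3% to 77.1% in control libraries. Taken relative to the median of all genes, all 21 called members kept their sign under the 4 scalings. A common factor for a library moves the genes and their median together, so this agreement was largely built in. Without KO replicate 2, 11 rose and 11 fell. In bulk RNA, fewer cells of a type and less RNA per cell cannot be told apart.

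**Figure D1:**
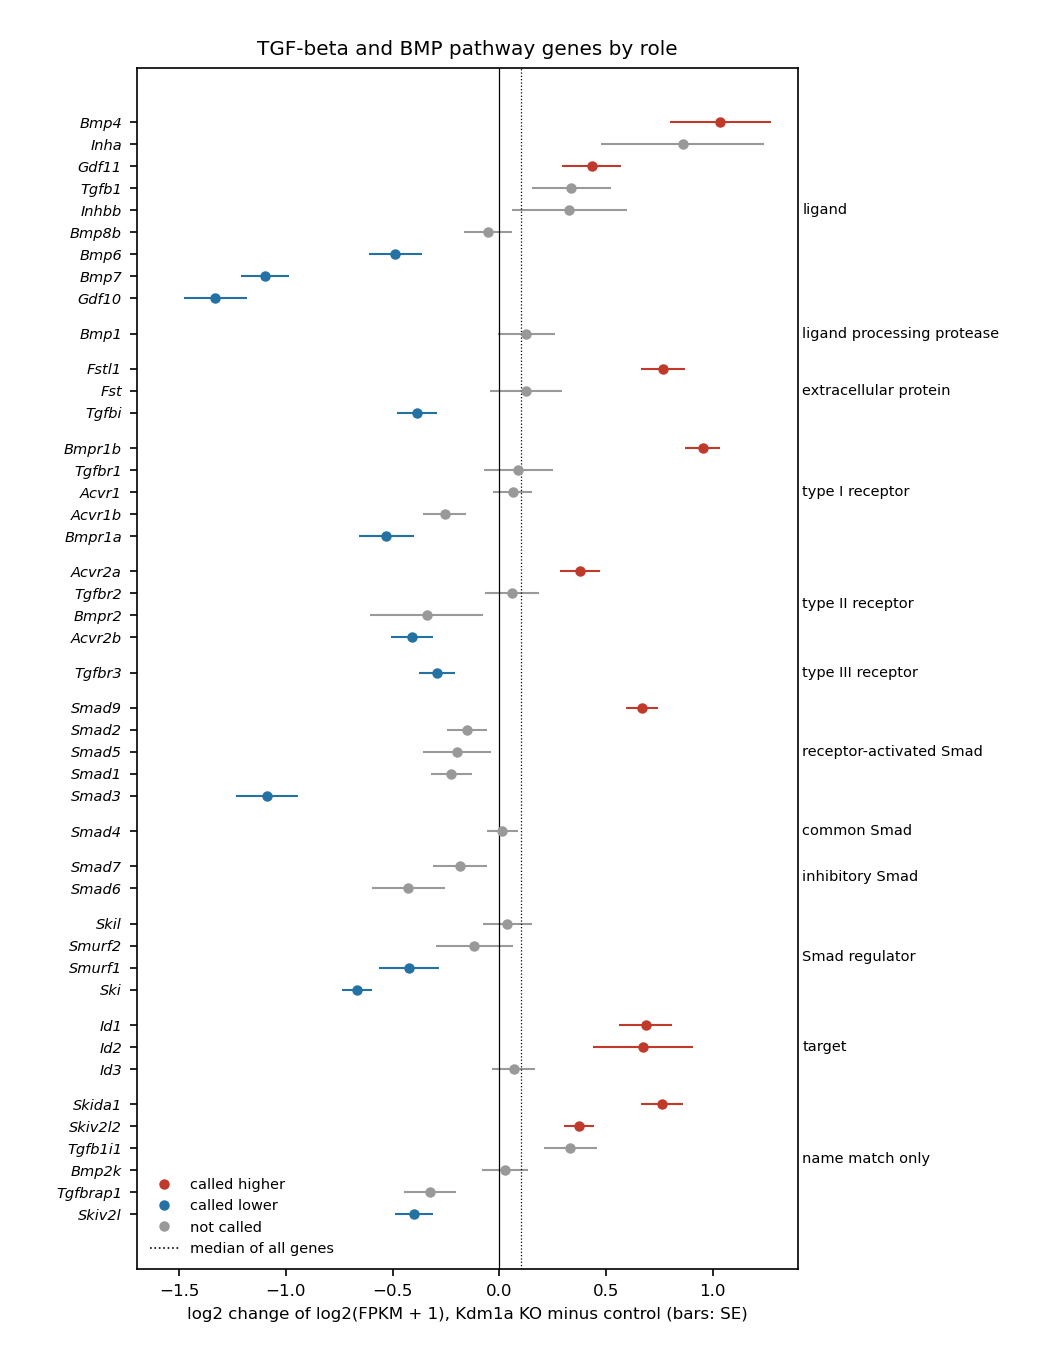
Log2 change of log2(FPKM + 1), Kdm1a KO minus control (x axis), of each of the 44 genes grouped by role, with bars for SE (n = 4 per group); red marks genes called higher, blue called lower and grey not called, and the dotted line is the median of all genes at 0.10. Ligands span the whole range, with Bmp4 at 1.04 and Gdf10 at -1.33. Of the 8 Smads, 6 are not called here, 4 with median-ratio scaling or quantile normalization and 5 with equal FPKM totals. With equal FPKM totals Acvr2b, Bmpr1a, Ski, Skiv2l, Smurf1 and Tgfbr3 turn positive.

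Ligands moved in both directions. Of 9 measured, Bmp4 and Gdf11 rose, Bmp7, Gdf10 and Bmp6 fell, and 4 were not called. Over all genes, 25.9% rose and 11.8% fell. The count moved with scaling: 1 rose and 3 fell with median-ratio scaling, quantile normalization or small RNAs removed. With equal totals 5 rose and 1 fell. None of the 5 ligands called as deposited turned its sign under any scaling, but the change of Bmp6 was all but gone with equal totals (log2 change -0.0055, adjusted p = 0.982). Bmp7, a BMP needed for kidney and eye development (ENSMUSG00000008999, chromosome 2, minus strand, 172868012 to 172940321 in mm10), had 2.87, 4.195, 3.63 and 3.72 FPKM in KO libraries, against 8.21, 8.18, 9.74 and 9.14 FPKM in control libraries. Every KO library lay well below every control library. Its mean was 2.45-fold lower in the KO (log2 change -1.10, SE 0.11, adjusted p = 0.000102), but its call was lost with equal totals (-0.49, adjusted p = 0.0748).

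Gdf10, a divergent ligand close to BMP3 (ENSMUSG00000021943, chromosome 14, plus strand, 33923587 to 33937983), showed the largest fall among the 44 genes. It had 0.606, 1.05, 0.762 and 0.606 FPKM in KO libraries, against 3.25, 2.43, 3.74 and 4.39 FPKM in control libraries. The highest KO library was below the lowest control library. The means of 0.756 ± 0.209 in KO and 3.45 ± 0.825 FPKM in control differ by 4.57-fold (log2 change -1.33, SE 0.15, adjusted p = 0.000168), behind which stand an inferred 148 to 241 fragments in KO and 779 to 1345 fragments in control libraries. Of the 11 genes that fell, only Gdf10 stayed called with equal totals (-0.91, adjusted p = 5.06e-05).

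Bmp6, known as the inducer of hepcidin in the liver, had 1.56, 2.11, 1.55 and 1.16 FPKM in KO and 2.74, 2.20, 2.75 and 2.79 FPKM in control libraries. The groups were separated only by the gap between KO replicate 2 and control replicate 2 (log2 change -0.49, SE 0.12, adjusted p = 0.0128). Bmp6 overlaps Txndc5 on the other strand over 224 bases. Txndc5 had 29.6 to 32.9 FPKM in KO and 29.9 to 36.0 FPKM in control libraries, and the labels do not say whether counting used strand.

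Bmp4, a BMP required in the mouse embryo for germ cells to form (ENSMUSG00000021835, chromosome 14, minus strand, 46383520 to 46390669), had 3.34, 1.62, 1.85 and 3.16 FPKM in KO libraries, against 0.407, 0.347, 1.55 and 0.578 FPKM in control libraries. Control replicate 3 came close to the lowest KO library, and the other control libraries lay far below. Means of 2.49 ± 0.884 in KO and 0.720 ± 0.562 FPKM in control give a 3.46-fold rise (log2 change 1.04, SE 0.24, adjusted p = 0.00803). Without control replicate 3 the control mean was 0.444 FPKM and the rise 5.61-fold (log2 change 1.24, adjusted p = 0.00244). The antisense gene Gm15222 overlaps Bmp4 over 1764 bases and had 0.243, 0.992, 0.609 and 0.318 FPKM in KO and 0, 0, 0.459 and 0.084 FPKM in control libraries. In the KO, Gm15222 was highest and Bmp4 lowest in replicate 2, whereas in the controls both were highest in replicate 3 and next highest in replicate 4. Without the strand setting, reads of the pair cannot be told apart.

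The ratio of Bmp7 to Bmp4, which a common factor for a library leaves as it is, was 0.859, 2.60, 1.96 and 1.18 in KO libraries, against 20.2, 23.6, 6.28 and 15.8 in control libraries. Bmp7 was thus the more abundant BMP by a wide margin in every control library and by less in the KO, where replicate 1 had more Bmp4. Gdf11, close to myostatin, had 2.51, 1.38, 2.05 and 2.19 FPKM in KO and 1.54, 1.37, 0.969 and 1.07 FPKM in control libraries, with KO replicate 2 inside the control range. Its call (log2 change 0.43, SE 0.14, adjusted p = 0.0341) was lost without KO replicate 1, 3 or 4 or control replicate 2, 3 or 4, where adjusted p was 0.0541 to 0.0933, and after median-ratio scaling, quantile normalization or removal of small RNAs.

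Tgfb1, the ligand of highest mean, was not called. It had 8.55, 15.3, 11.7 and 14.2 FPKM in KO and 8.07, 7.92, 11.2 and 11.0 FPKM in control libraries, with KO replicate 1 inside the control range (log2 change 0.34, SE 0.18, adjusted p = 0.177). Without that library it was called (0.49, adjusted p = 0.0351). Bmp8b, needed in male mice to maintain spermatogenesis, averaged 1.29 ± 0.242 FPKM in KO and 1.37 ± 0.241 FPKM in control libraries (adjusted p = 0.745).

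Inha and Inhbb encode the inhibin alpha and the beta B subunits, the second of which also forms activin B. Inha had 6.998, 2.98, 11.6 and 9.97 FPKM in KO libraries, against 6.37, 2.12, 2.50 and 4.06 FPKM in control libraries. It was not called (log2 change 0.86, SE 0.38, adjusted p = 0.106), but it was without KO replicate 2 (1.20, adjusted p = 0.0102). Inhbb had 1.49, 0.393, 1.76 and 1.31 FPKM in KO and 1.82, 0.430, 0.391 and 0.589 FPKM in control libraries (adjusted p = 0.369). Its KO mean was 1.54 times the control mean with all libraries and 2.63 times without control replicate 1, where it was still not called (adjusted p = 0.0871). Both followed the Sertoli markers from library to library. The other 10 Sertoli markers, without Inha and Rhox5, summed to 54.8, 27.9, 69.4 and 61.3 FPKM in KO and 64.7, 20.1, 20.6 and 25.8 FPKM in control libraries. KO replicates 1, 3 and 4 and control replicate 1 were high in all 3 measures, and their part in the Inha difference was not tested.

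**Figure D2:**
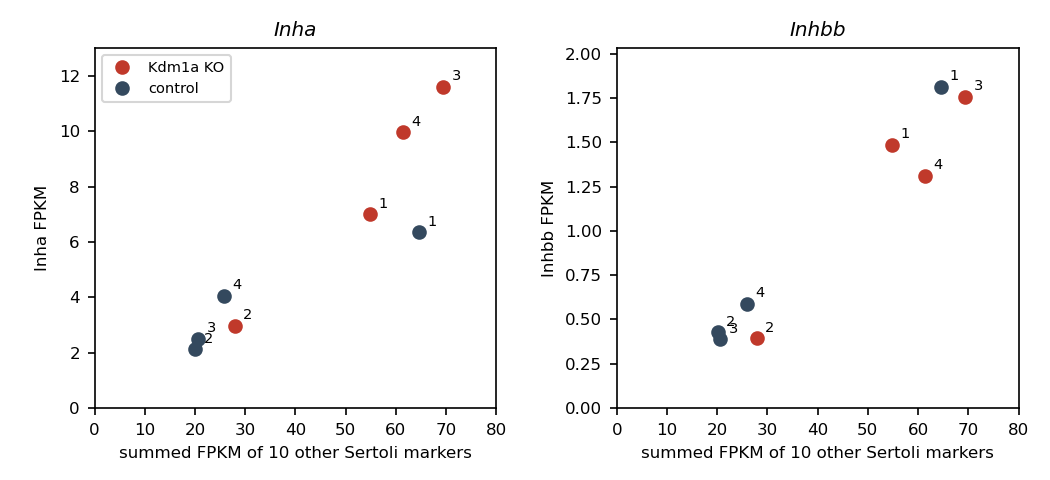
FPKM of Inha (left) and Inhbb (right) in each library (y axis) against the summed FPKM of 10 other Sertoli markers (x axis); points are libraries, numbered by replicate, red for Kdm1a KO and dark for control. KO replicate 2 at 27.9 lies with control replicates 2, 3 and 4 at 20.1 to 25.8, and control replicate 1 at 64.7 lies with the other KO libraries at 54.8 to 69.4.

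Among the proteins that act outside the cell, Fstl1 rose and Tgfbi fell, and the activin antagonist Fst and the protease Bmp1 were not called. Neither called gene turned its sign under another scaling, but the change of Tgfbi was small and not called with equal totals (log2 change -0.045, adjusted p = 0.826). Fstl1, a secreted glycoprotein related to follistatin, had 14.5, 15.6, 13.2 and 15.002 FPKM in KO and 8.19, 6.81, 8.37 and 9.39 FPKM in control libraries. The lowest KO library was above the highest control library (1.78-fold, log2 change 0.77, SE 0.10, adjusted p = 0.000497). The rise was mainly in its protein-coding transcript, at 11.1 ± 0.550 FPKM in KO and 5.67 ± 0.947 FPKM in control. Its 2 noncoding transcripts were also higher on average, with a sum of 3.43 ± 0.526 FPKM in KO and 2.52 ± 0.293 FPKM in control. Tgfbi, a matrix protein induced by TGF-beta in many cells, had 0.790, 0.463, 0.751 and 0.721 FPKM in KO and 1.16, 1.35, 1.27 and 1.002 FPKM in control libraries (log2 change -0.39, SE 0.10, adjusted p = 0.0119). Fst was at 10.1 ± 0.816 FPKM in KO and 9.39 ± 2.61 FPKM in control libraries (adjusted p = 0.585). Bmp1, which cleaves procollagens and the BMP antagonist chordin, had 1.05, 1.27, 1.72 and 1.27 FPKM in KO and 1.62, 1.16, 0.993 and 0.793 FPKM in control libraries, ranges that overlap (adjusted p = 0.491).

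Of 5 type I and 4 type II receptors, 1 of each rose and 1 of each fell, against 25.9% and 11.8% of all genes. These counts moved with scaling. In type II, 0 rose and 1 fell with median-ratio scaling, quantile normalization or small RNAs removed. With equal totals, 2 type II receptors rose and 0 fell. In type I, 1 rose and 2 fell with median-ratio scaling or quantile normalization, and 3 rose and 0 fell with equal totals. Of 10 receptors, Bmpr1b and Acvr2a rose, Bmpr1a, Acvr2b and Tgfbr3 fell, though these 3 turned positive with equal totals, and 5 were not called. Bmpr1b, the BMP type I receptor ALK6 (ENSMUSG00000052430, chromosome 3, minus strand, 141837136 to 142169425), had 4.28, 4.08, 3.96 and 3.95 FPKM in KO libraries, against 1.47, 1.57, 1.799 and 1.64 FPKM in control libraries. Both groups were tight, and they did not overlap. Bmpr1b was 2.51-fold higher (log2 change 0.95, SE 0.08, adjusted p = 4.41e-05), the smallest adjusted p of the 44 genes, and it stayed called in all 20 alternatives. Its longest protein-coding transcript was at 2.34 ± 0.198 FPKM in KO and 0.728 ± 0.0672 FPKM in control libraries.

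Bmpr1a, the type I receptor ALK3 and the receptor of highest level, had 28.4, 18.8, 24.8 and 26.9 FPKM in KO and 39.0, 33.3, 32.7 and 38.3 FPKM in control libraries. All KO libraries lay below the controls (log2 change -0.53, SE 0.13, adjusted p = 0.0106). The difference lay mainly in a shorter transcript. That transcript, ENSMUST00000165280, was at 3.71 ± 2.97 FPKM in KO and 11.6 ± 1.502 FPKM in control libraries. The main transcript, ENSMUST00000049005, averaged 19.7 ± 1.68 FPKM in KO and 22.2 ± 2.75 FPKM in control libraries, and the gene was not called when its most abundant entry stood for it (log2 change -0.16, adjusted p = 0.257). The ratio of Bmpr1a to Bmpr1b was 6.63, 4.60, 6.27 and 6.80 in KO libraries, against 26.6, 21.1, 18.2 and 23.3 in control libraries. Bmpr1a remained the more abundant of these receptors in every library.

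Type II receptors of activin changed in opposite directions. Acvr2a had 10.6, 11.6, 9.97 and 10.0 FPKM in KO and 7.25, 8.96, 7.40 and 7.98 FPKM in control libraries (log2 change 0.38, SE 0.09, adjusted p = 0.0120). Acvr2b had 13.8, 11.0, 12.2 and 13.1 FPKM in KO and 18.4, 17.9, 16.7 and 14.8 FPKM in control libraries (log2 change -0.41, SE 0.10, adjusted p = 0.0105; 0.27 with equal totals). Neither gene's groups overlapped, and the ratio of Acvr2b to Acvr2a was 1.20 ± 0.172 in KO and 2.17 ± 0.303 in control libraries. The call of Acvr2a was lost after median-ratio scaling (adjusted p = 0.0741), quantile normalization (0.0722) and removal of small RNAs (0.136). Acvr2a shares 446 bases with Orc4 on the other strand, which also rose (51.9 to 59.4 FPKM in KO, 38.8 to 44.9 FPKM in control; adjusted p = 0.00232).

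Tgfbr3, the coreceptor betaglycan, had 1.07, 0.790, 0.911 and 0.928 FPKM in KO and 1.415, 1.28, 1.49 and 1.22 FPKM in control libraries (log2 change -0.29, SE 0.08, adjusted p = 0.0238). The groups did not overlap, but the call was lost without KO replicate 3 or 4 or control replicate 1 or 3, at adjusted p of 0.0540 to 0.0702. The TGF-beta receptors proper were not called: Tgfbr1 was at 18.5 ± 4.30 FPKM in KO and 16.99 ± 1.58 FPKM in control libraries, and Tgfbr2 at 1.51 ± 0.362 FPKM in KO and 1.39 ± 0.237 FPKM in control libraries. Acvr1 was at 5.58 ± 0.457 FPKM in KO and 5.29 ± 0.336 FPKM in control libraries, and Bmpr2 at 5.91 ± 2.45 FPKM in KO and 7.45 ± 1.84 FPKM in control libraries, with KO replicate 2 lowest at 2.97 FPKM; neither was called. Acvr1b, an activin type I receptor, had 7.32 to 9.75 FPKM in KO and 10.4 to 11.4 FPKM in control libraries, groups that did not overlap (adjusted p = 0.0690). It was called lower with median-ratio scaling (adjusted p = 0.0183) and quantile normalization (0.0100).

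**Figure D3:**
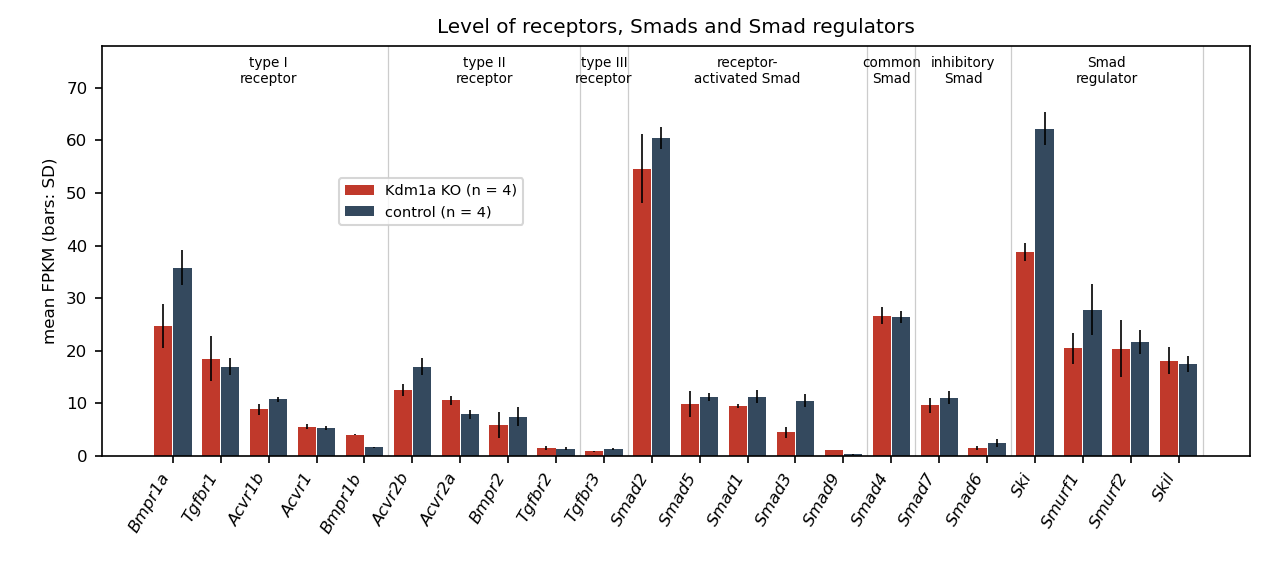
Mean FPKM (y axis, bars for SD, n = 4 per group) of receptors, Smads and Smad regulators, red for Kdm1a KO and dark for control, in order of level within each role. Smad2 and Ski are the most abundant, Ski at 38.7 in KO and 62.2 in control libraries; Ski, Bmpr1a, Acvr2b, Smurf1 and Tgfbr3, lower here, turn positive with equal FPKM totals.

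Of 8 Smads, Smad3 of the TGF-beta and activin arm fell, Smad9 of the BMP arm rose and 6 were not called. Over all genes, 37.6% were called. Neither called gene changed sign under another scaling, and Smad9 reached the minimum for testing through the KO libraries alone. The count depends on scaling: with median-ratio scaling or quantile normalization Smad1 and Smad6 were also called lower, which leaves 4 not called. With equal totals 3 Smads rose, 0 fell and 5 were not called. Smad3, the transducer of TGF-beta and activin that binds DNA directly (ENSMUSG00000032402, chromosome 9, minus strand, 63646767 to 63757994), had 5.80, 3.27, 4.21 and 4.63 FPKM in KO libraries, against 10.8, 11.9, 10.5 and 9.03 FPKM in control libraries. The highest KO library was below the lowest control library. Its mean was 2.35-fold lower in the KO (log2 change -1.09, SE 0.15, adjusted p = 0.000469), and with equal totals its call was lost (-0.46, adjusted p = 0.0992). A single transcript makes up 97.8% of the gene's FPKM.

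Smad2, the most abundant Smad and the partner of Smad3 in the same arm, had 61.8, 45.8, 55.0 and 56.0 FPKM in KO and 63.4, 58.7, 59.96 and 59.7 FPKM in control libraries, with KO replicate 1 inside the control range (log2 change -0.15, SE 0.09, adjusted p = 0.242; 0.56 and called with equal totals). The ratio of Smad2 to Smad3 was 10.7, 14.0, 13.1 and 12.1 in KO libraries, against 5.88, 4.95, 5.72 and 6.60 in control libraries. Smad2 exceeded Smad3 in every library. The 5 receptor-activated Smads together summed to 79.6 ± 10.5 FPKM in KO and 93.8 ± 4.06 FPKM in control libraries. Smad2 made up most of each sum, and the sums overlapped, at 65.8 to 91.1 FPKM in KO and 88.9 to 98.9 FPKM in control libraries.

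Smad9, the least abundant BMP Smad (ENSMUSG00000027796, chromosome 3, plus strand, 54755582 to 54801257), had 1.15, 1.09, 1.19 and 1.07 FPKM in KO libraries, against 0.400, 0.398, 0.264 and 0.287 FPKM in control libraries. The groups were tight and far apart, with an inferred 259 to 381 fragments in KO and 91 to 132 in control libraries. Means of 1.13 ± 0.0540 in KO and 0.338 ± 0.0722 FPKM in control give a 3.34-fold rise (log2 change 0.67, SE 0.08, adjusted p = 0.000176); the log2 change understates the fold of so low a gene because of the pseudocount of 1. Since the gene reached the minimum for testing through the KO libraries alone, these values are a description. The other BMP Smads were not called: Smad1 was at 9.47 ± 0.359 FPKM in KO and 11.3 ± 1.31 FPKM in control libraries, and Smad5 at 9.91 ± 2.46 FPKM in KO and 11.3 ± 0.787 FPKM in control libraries. Smad1 was called lower without control replicate 4 (log2 change -0.30, adjusted p = 0.0338), with median-ratio scaling (-0.36, adjusted p = 0.0250) and with quantile normalization (-0.35, adjusted p = 0.0211). Smad1 and Smad5 together were 17.2 ± 2.41 times the level of Smad9 in KO and 68.8 ± 13.4 times in control libraries.

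Smad4, the partner shared by both arms, had 29.0, 25.1, 26.3 and 26.3 FPKM in KO and 27.9, 26.7, 25.6 and 25.5 FPKM in control libraries (log2 change 0.01, SE 0.07, adjusted p = 0.900). Its groups overlapped as deposited, and with equal totals it was called higher (0.71, adjusted p = 0.00988). Of the inhibitory Smads, Smad7 had 10.6, 7.74, 9.30 and 11.0 FPKM in KO and 11.2, 9.24, 11.95 and 11.9 FPKM in control libraries (adjusted p = 0.278). Smad6 was at 1.54 ± 0.398 FPKM in KO and 2.44 ± 0.732 FPKM in control libraries (log2 change -0.43, SE 0.17, adjusted p = 0.0778). Smad6 passed the threshold without KO replicate 2 (adjusted p = 0.0322) or control replicate 2 (0.0275), and with median-ratio scaling (0.0281), quantile normalization (0.0175) or small RNAs removed (0.0214).

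Among Smad regulators, Ski and Smurf1 fell, both turning positive with equal totals, and Skil and Smurf2 were not called. Ski (ENSMUSG00000029050, chromosome 4, minus strand, 155154075 to 155222592), a corepressor that binds SMAD2, SMAD3 and SMAD4, had 36.9, 39.2, 37.9 and 40.9 FPKM in KO libraries, against 63.0, 59.9, 66.3 and 59.6 FPKM in control libraries. Both groups were tight and lay apart (1.60-fold lower in the KO, log2 change -0.67, SE 0.07, adjusted p = 0.000112; 0.04 with equal totals). The 2 protein-coding transcripts of Ski summed to 22.6 ± 6.44 FPKM in KO and 42.8 ± 5.75 FPKM in control libraries, and its noncoding transcript was at 16.1 ± 6.93 FPKM in KO and 19.3 ± 4.26 FPKM in control libraries. How Cufflinks divides fragments among transcripts that share exons makes such shares uncertain.

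Skil, which encodes the Ski relative SnoN, was at 18.1 ± 2.57 FPKM in KO and 17.5 ± 1.53 FPKM in control libraries (adjusted p = 0.817). Its most abundant transcript was at 8.59 ± 0.900 FPKM in KO and 4.98 ± 1.60 FPKM in control libraries and was called when that entry stood for the gene (log2 change 0.72, adjusted p = 0.0194). The ratio of Ski to Skil was 2.18 ± 0.370 in KO and 3.57 ± 0.384 in control libraries. Smurf1, a ubiquitin ligase for BMP Smads, had 23.5, 16.5, 20.3 and 21.6 FPKM in KO and 30.4, 33.1, 25.2 and 22.6 FPKM in control libraries. KO replicate 1 lay inside the control range, and the call (log2 change -0.42, SE 0.14, adjusted p = 0.0414) was lost when any library except KO replicate 1 or control replicate 4 was left out (adjusted p = 0.0580 to 0.108), and once small RNAs were removed (0.0874). Smurf2 was at 20.4 ± 5.48 FPKM in KO and 21.7 ± 2.28 FPKM in control libraries (adjusted p = 0.642; 0.57 and called with equal totals).

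Id1, Id2 and Id3 encode inhibitors of basic helix-loop-helix factors and are induced by BMP Smads in many cells. Id1 and Id2 rose, with the same sign under the 4 other scalings, and Id3 was not called. Id1 had 4.28, 6.14, 4.42 and 4.25 FPKM in KO libraries, against 2.83, 2.25, 2.45 and 2.74 FPKM in control libraries. The groups did not overlap, and KO replicate 2 was the highest library (1.86-fold, log2 change 0.69, SE 0.12, adjusted p = 0.00229). Id2 had 3.68, 0.983, 2.24 and 3.03 FPKM in KO and 1.23, 1.15, 0.836 and 1.115 FPKM in control libraries. KO replicate 2 was within the control range, at an inferred 50 fragments, and the call (log2 change 0.67, SE 0.23, adjusted p = 0.0475) was lost when any library except KO replicate 2 was left out (adjusted p = 0.0789 to 0.114). It was also lost after median-ratio scaling (adjusted p = 0.0841), quantile normalization (0.123) and removal of small RNAs (0.122), with a pseudocount of 0.1 (0.0515), and when its most abundant entry stood for it (0.0548). Without KO replicate 2 it was called at a log2 change of 0.92 (adjusted p = 0.000839). The 3 Id genes together summed to 9.56 ± 0.777 FPKM in KO and 5.81 ± 0.555 FPKM in control libraries. Id3 was at 2.31 ± 0.287 FPKM in KO and 2.15 ± 0.250 FPKM in control libraries (adjusted p = 0.630).

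**Figure D4:**
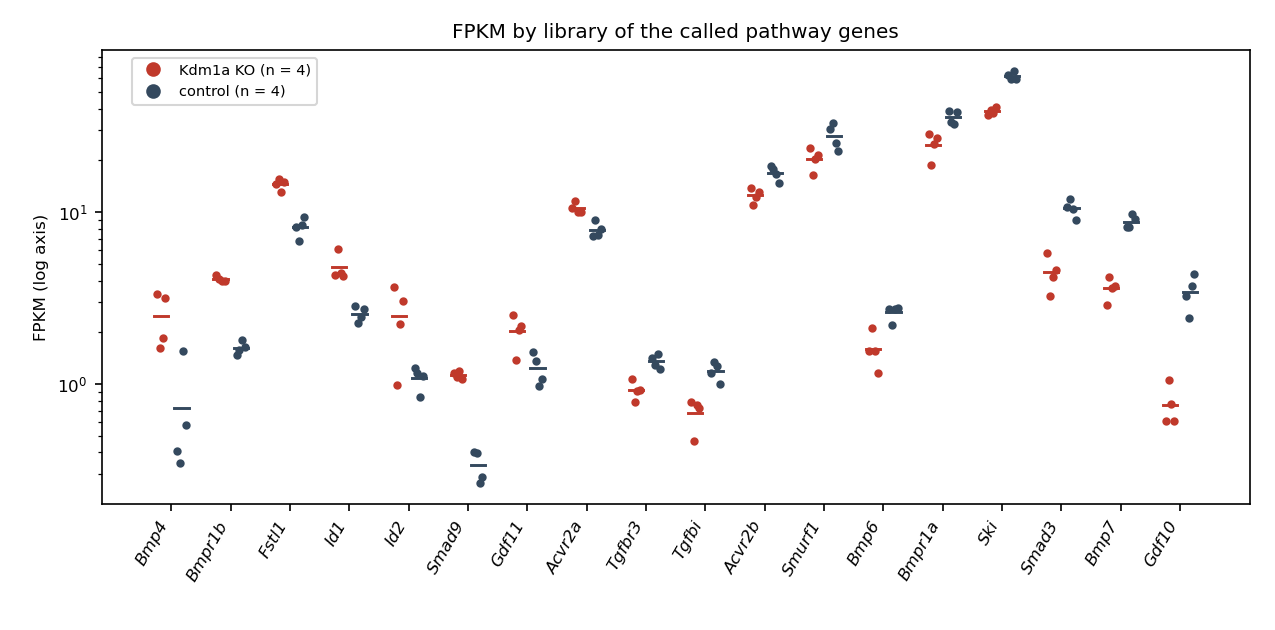
FPKM on a log axis of the 18 called pathway components in each library, red for Kdm1a KO and dark for control, with short lines for means (n = 4 per group), ordered by log2 change. Smurf1, Gdf11 and Id2 overlap, and the other called components are fully separated, as are 38.5% of all genes tested, called or not. Smad9, among the separated, reached the minimum for testing through the KO libraries alone. With equal FPKM totals Tgfbr3, Acvr2b, Smurf1, Bmpr1a and Ski turn positive.

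The 6 genes set apart as name matches included 3 called genes, against 37.6% called of all genes. Skida1, which carries a SKI/DACH domain, had 2.45, 2.64, 2.02 and 2.10 FPKM in KO and 0.755, 0.971, 1.10 and 0.954 FPKM in control libraries (2.43-fold, log2 change 0.76, SE 0.10, adjusted p = 0.000398). Skiv2l2, the nuclear exosome helicase MTR4 and the most abundant of all 44 genes, had 82.0, 71.5, 77.0 and 78.7 FPKM in KO and 62.01, 58.04, 59.8 and 57.5 FPKM in control libraries (log2 change 0.37, SE 0.07, adjusted p = 0.00286). Its call was lost once small RNAs were taken out (adjusted p = 0.223). Skiv2l, the cytoplasmic helicase of the Ski complex, had 17.3, 19.5, 18.6 and 18.3 FPKM in KO and 24.7, 27.4, 25.3 and 21.4 FPKM in control libraries (log2 change -0.40, SE 0.09, adjusted p = 0.00665; 0.29 with equal totals, and -0.33 with adjusted p = 0.0558 for its most abundant entry). In none of these 3 did the groups overlap. Bmp2k was at 7.15 ± 1.03 FPKM in KO and 6.95 ± 0.315 FPKM in control libraries, Tgfbrap1 at 6.11 ± 0.977 FPKM in KO and 7.86 ± 0.735 FPKM in control libraries, and Tgfb1i1 at 0.685 ± 0.243 FPKM in KO and 0.332 ± 0.150 FPKM in control libraries, and none was called. Tgfbrap1 passed the threshold without KO replicate 1 (adjusted p = 0.0436), with median-ratio scaling (0.0256) and with quantile normalization (0.0118), and Tgfb1i1 without KO replicate 1 (0.0191) or control replicate 1 (0.0437). Since Tgfb1i1 reached the minimum for testing through the KO libraries alone, its values are a description.

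A list of 87 other genes of the pathway, not matched by the symbols, was examined in the same fit. Of these, 69 were tested, 8 were under the minimum, and 10 were not analysed here. In the KO 13 rose and 13 fell, with a median log2 change of 0.07, against 25.9% and 11.8% of all genes. Those that rose include Cer1, which passed the minimum for testing through the KO libraries alone. After median-ratio scaling 9 rose and 18 fell. With equal totals 47 rose and 0 fell by limma, 0 also at an unadjusted p under 0.05. By class, which was chosen by known role, 4 of 20 secreted and membrane modulators rose and 4 fell, 3 of 28 intracellular regulators rose and 5 fell, 3 of 9 nuclear partners rose and 2 fell, and 3 of 12 targets rose and 2 fell.

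Cer1, a secreted antagonist of Nodal and BMP ligands, had 1.399, 1.64, 1.09 and 1.43 FPKM in KO and 0.0860, 0.0962, 0.148 and 0.257 FPKM in control libraries. The groups were far apart (9.46-fold, log2 change 1.06, SE 0.10, adjusted p = 5.06e-05), and the gene passed the minimum for testing through the KO libraries alone, so these values are a description. The related homeodomain corepressors Tgif1 and Tgif2, which bind SMAD2, changed in opposite directions. Tgif1 had 35.9, 35.5, 30.5 and 37.7 FPKM in KO and 11.3, 7.45, 13.9 and 16.1 FPKM in control libraries (2.86-fold, log2 change 1.49, SE 0.19, adjusted p = 0.000406). Tgif2 had 18.2, 21.1, 18.4 and 18.8 FPKM in KO and 29.6, 32.2, 30.9 and 28.1 FPKM in control libraries (log2 change -0.63, SE 0.08, adjusted p = 0.000306; 0.06 with equal totals). Neither gene's groups overlapped. Tgif1 exceeded Tgif2 in every KO library, and Tgif2 exceeded Tgif1 in every control library.

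Ctdsp1, a phosphatase that acts on the Smad linker, had 9.54, 14.4, 11.9 and 12.5 FPKM in KO and 23.4, 22.3, 29.5 and 28.7 FPKM in control libraries (2.15-fold lower in the KO, log2 change -1.05, SE 0.14, adjusted p = 0.000386). Usp15, a deubiquitinase that acts on Smads and the TGF-beta receptor, had 34.2, 30.6, 30.7 and 32.6 FPKM in KO and 21.1, 18.5, 22.7 and 21.9 FPKM in control libraries (1.52-fold, log2 change 0.58, SE 0.08, adjusted p = 0.000628). Cdkn2b, the cell cycle inhibitor p15 and a TGF-beta target in epithelial cells, had 3.81, 4.47, 3.86 and 3.55 FPKM in KO and 2.00, 1.56, 2.19 and 2.16 FPKM in control libraries (1.98-fold, log2 change 0.73, SE 0.11, adjusted p = 0.000751). In each of these 3 genes all KO libraries lay on the same side of all control libraries.

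**Figure D5:**
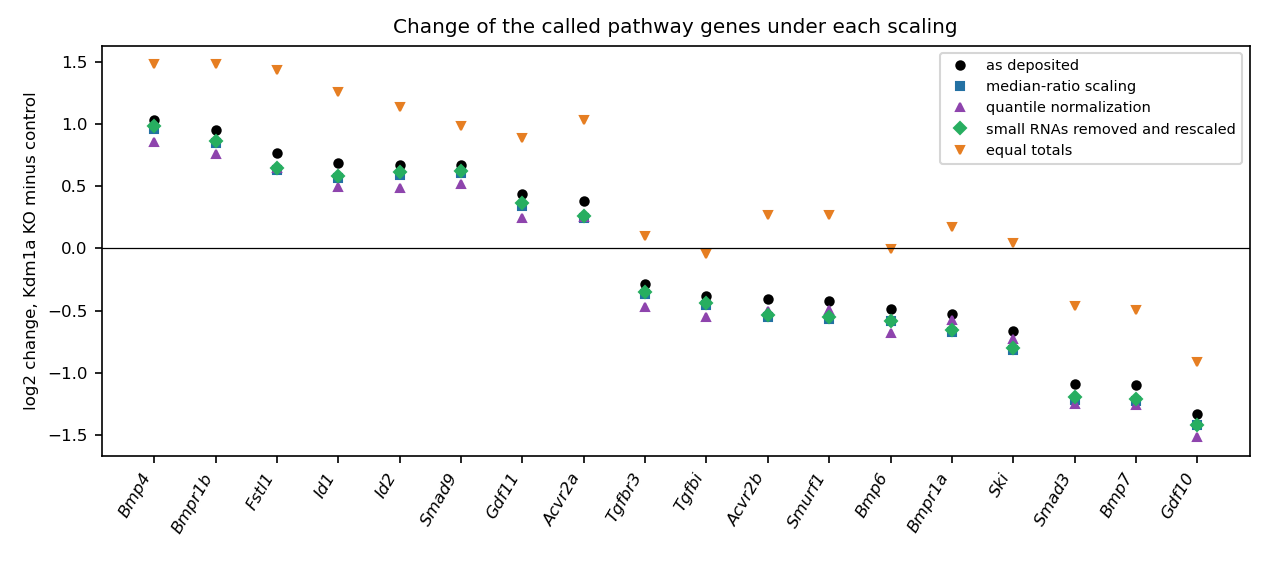
Log2 change, Kdm1a KO minus control (y axis), of the 18 called pathway components under the deposited values and 4 other scalings, each a marker. Median-ratio, quantile and small RNA scalings lie close to the deposited values, and equal totals lie above the deposited values by 0.31 to 0.71, taking Tgfbr3, Acvr2b, Smurf1, Bmpr1a and Ski above 0.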

How the data were processed

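The authors deposited FPKM for 45550 transcript entries in 8 libraries, 4 per group. Per the labels' protocols, RNA came from PicoPure kits and 250 ng went into TruSeq Stranded mRNA libraries; the submitters' processing notes name Cufflinks, Cuffdiff, TopHat and Bowtie, and the mm10 build. Their versions and the strand setting are not stated.

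FPKM are not counts, so no count model was used. Entries that share a gene identifier were added up, which gave 17589 genes. Those averaging 0.5 FPKM or more, the minimum that chose the members, were tested on log2(FPKM + 1), pseudocount 1, with limma 3.58.1 in R 4.3.3 (lmFit, eBayes with trend), group alone in the model, two-sided, Benjamini-Hochberg over 15083 genes, called at an adjusted p under 0.05. Folds are ratios of mean FPKM; log2 changes are Kdm1a KO minus control. The fit was tested on simulated data. Positions came from GENCODE M21 (GRCm38, the same build as mm10), which held 17257 of the genes and 44291 of the transcripts; Gdf1 was not matched.

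Depth was inferred from 2615 genes with a single annotated transcript of at least 600 bases. Among values of up to 20 fragments, 73.9% to 81.4% lay within 0.1 of a whole number, against 20% by chance. It describes precision only.

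Members and lists were chosen with earlier results of these data known. The text names each called member, the most abundant of each role, Kdm1a, Pou5f1 and the 6 other pathway genes of smallest adjusted p, and gives other members by their means; Mir5105, Orc4, Txndc5 and Gm15222 were added after their values were seen. Markers of 8 cell types were fixed as lists: germ, Sertoli, Leydig, peritubular myoid, endothelial, macrophage, erythroid and interstitial stromal.

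Alternatives covered pseudocount, filter, scaling, small RNAs, limma settings, the replicate block, single transcript entries, zeros as missing and each library left out.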

Additional observations from a re-analysis of the deposited data

Results flagged for a closer look

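Among 100 groups of 4 libraries examined (44 pathway genes and 6 other pathway genes in each group), 3 had a library far from the other 3, or 3%, and chance alone flags about 1 in 20. Id1 in Kdm1a KO replicate 2 was at 6.138 FPKM, against 4.246 to 4.425 FPKM in the other KO libraries, and all of these lay above the control libraries. Inhbb in control replicate 1 was at 1.815 FPKM, against 0.3911 to 0.589 FPKM in the other control libraries; that library was also the highest control for the Sertoli markers. Bmp6 in control replicate 2 was at 2.203 FPKM, against 2.737 to 2.787 FPKM in the other control libraries, close to the highest KO library at 2.11 FPKM.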

How the results depend on the processing

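Of the 21 called genes, 15 kept their sign and 7 also their call in every alternative that tested them, which was 20 for most and 19 for Smad9 and Tgfbi, under the stricter filter of 1 FPKM. With equal FPKM totals, 25 members rose and 1 fell, 47 other pathway genes rose and 0 fell, and 10505 genes of all rose and 199 fell. With small RNAs removed 6 members rose. Of all genes, 2948 fell under median-ratio scaling and 2913 under quantile normalization. The 6 called members whose sign turned did so with equal totals: Acvr2b 0.27, Bmpr1a 0.17, Ski 0.042, Skiv2l 0.29, Smurf1 0.27 and Tgfbr3 0.10. So did the other pathway gene Tgif2 (0.062), and Smad2 (0.56) and Smurf2 (0.57), not called as deposited, were called higher there; the cause was not tested. Of the 23 members not called, 19 turned sign in at least 1 alternative: 10 with equal totals, 8 with median-ratio scaling, 7 with quantile normalization and 7 with small RNAs removed. With a library left out, members that rose numbered 8 to 11 and fell 9 to 12, other pathway genes 10 to 17 and 10 to 14, and all genes 3068 to 4371 and 1282 to 2166. Whether shared replicate numbers pair the samples is not known from the labels. Correlations of the deviations of same-numbered libraries were 0.22, -0.12, -0.13 and -0.09, against -0.33 to 0.25 for other pairs. Such correlations cannot settle it. With the replicate number as a block, 8 members rose and 10 fell, and 3426 and 1536 of all genes. Depth limits the lowest genes, such as Id2 and Tgfbi, which rest on an inferred 50 to 261 fragments a library; such numbers cover counting error only.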
